A study of Mus musculus with 37 samples.

Results

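Gene expression was measured in Lgr5-EGFP+ cells that were sorted from irradiated small intestinal organoids cultured with or without vasoactive intestinal peptide (VIP). These libraries were 8 of the 37 in the series and were chosen by their labels alone: 4 had received VIP after irradiation and 4 had been irradiated and left untreated. Jejunal organoids had been grown from 4 adult male and female Lgr5-EGFP-IRES-CreERT2 mice, exposed to 6 Gy of X-rays and then kept for 48 h with 100 nM VIP or without it, so that each mouse gave 1 library of either kind. Both groups therefore shared the EGFP allele at the Lgr5 locus, the organoid culture and the radiation. Another 8 libraries from the same 4 mice, with and without VIP but not irradiated, served as the reference for the effect of VIP without injury.

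VIP is a neuropeptide of the enteric nervous system that acts through the G protein-coupled receptors VPAC1 (Vipr1) and VPAC2 (Vipr2), which raise cyclic AMP and activate the transcription factor CREB. Lgr5 marks the crypt base columnar cells from which absorptive enterocytes and the secretory Paneth, goblet, enteroendocrine and tuft cells arise. Ionizing radiation damages DNA, which stabilizes the transcription factor p53 and raises its targets, among them the cell cycle inhibitor Cdkn1a and the p53 antagonist Mdm2.

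The irradiated libraries held between 1075715 and 1876729 unique molecular identifiers (UMIs, each standing for 1 captured RNA molecule), of which 5% to 6.78% came from mitochondrial genes. Values are given as UMI counts per 1000000 (CPM) after normalization by the trimmed mean of M values. The labels were checked against known genes. Lgr5 was detected in all 8 irradiated libraries with 19 to 49 UMIs. Cdkn1a lay between 588 and 699 CPM in the irradiated libraries and between 160 and 354 CPM in the non-irradiated ones, so these groups did not overlap. Immune markers were close to 0, summing to between 5.57 and 12.1 CPM, and mesenchymal markers summed to between 26 and 73.6 CPM. Nearly all of the mesenchymal sum was Vim, with 36 to 133 UMIs per irradiated library, while the collagen genes were close to 0. Xist was at 455 to 725 UMIs in the 4 libraries of mouse 1 and at 35 to 86 UMIs in those of the other mice, while the Y-linked genes Ddx3y, Uty and Kdm5d summed to 12 to 16 UMIs in mouse 1 and to 17 to 44 UMIs in the others. Xist and Y-linked UMIs were thus present together in every library, and their source was not tested. The Paneth marker Lyz1 stood at 1251 to 3038 CPM, so transcripts of differentiated cells were present in the sorted fraction. In these bulk samples fewer cells of a type and less RNA per cell cannot be told apart.

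VIP changed a small set of genes in irradiated cells. Among those that fell were 5 genes of the enterocyte list, Fabp1, Rbp2, Adh1, Cyp2c29 and Cyp3a11, and among those that rose were the crypt gene Olfm4, the tight junction gene Cldn2, the water channel gene Aqp1 and Cbs. Of 9976 genes tested, 22 (0.221%) passed an adjusted p of 0.05 in edgeR's quasi-likelihood test with the mouse as a block. Among them 13 (0.130%) were higher with VIP and 9 (0.0902%) were lower. All 22 moved the same way in 4 of 4 mice, and for 21 the VIP and untreated libraries did not overlap, as was the case for 2.90% of all genes tested. Only Fabp1, Rbp2 and Adh1 were called under every alternative analysis that was run. Without mouse 3 the number of calls was 5, and without mouse 4 it was 10.

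The smallest p-value belonged to Fabp1, the liver-type fatty acid-binding protein of enterocytes (chromosome 6, 71199827 to 71205023, GRCm38). Its level in mice 1 to 4 was 272, 438, 176 and 389 CPM in the untreated cells and 135, 143, 113 and 96.9 CPM with VIP. Every VIP library thus lay below every untreated library, with a log2 fold change of -1.37 ± 0.18 (SE, edgeR adjusted p = 0.00041). Rbp2, which carries retinol inside enterocytes, stood at 66.3, 100.01, 57.0 and 170 CPM without VIP and at 24.6, 38.2, 31.0 and 31.9 CPM with it. The change in Rbp2 was -1.60 ± 0.24 on the log2 scale (edgeR adjusted p = 0.0018), and untreated mouse 4 was the highest library. Adh1, an alcohol dehydrogenase that also oxidizes retinol, measured 245, 288, 256 and 293 CPM in untreated cells and 160, 172, 190 and 121 CPM with VIP. Its log2 fold change was -0.76 ± 0.10 (edgeR adjusted p = 0.00047), and the groups were again separate.

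Further genes of xenobiotic metabolism were lower. Cyp2c29, a cytochrome P450, measured 44.4, 54.4, 36.7 and 163 CPM in untreated mice 1 to 4 and 17.6, 19.1, 17.9 and 14.1 CPM after VIP (log2 fold change -2.002 ± 0.36, edgeR adjusted p = 0.0072). Cyp3a11, the mouse counterpart of the main drug-metabolizing P450 of the gut, was at 34.3, 41.8, 19.3 and 95.9 CPM without VIP and at 17.1, 18.3, 13.1 and 15.7 CPM with it (-1.47 ± 0.28, edgeR adjusted p = 0.018). The carboxylesterase Ces2a was at 104, 82.4, 78.3 and 237 CPM without VIP and at 74.8, 62.1, 48.3 and 59.5 CPM with it (-0.96 ± 0.20, edgeR adjusted p = 0.036). In each of these genes the untreated library of mouse 4 stood far above the others, whereas the 4 VIP libraries lay close together. When mouse 4 was left out, Cyp2c29, Cyp3a11 and Ces2a no longer passed (adjusted p = 0.058, 0.44 and 0.33, with log2 fold changes of -1.29, -0.94 and -0.51), while Fabp1, Rbp2 and Adh1 still passed with adjusted p-values of 0.0028, 0.0028 and 0.0064.

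**Figure D1:**
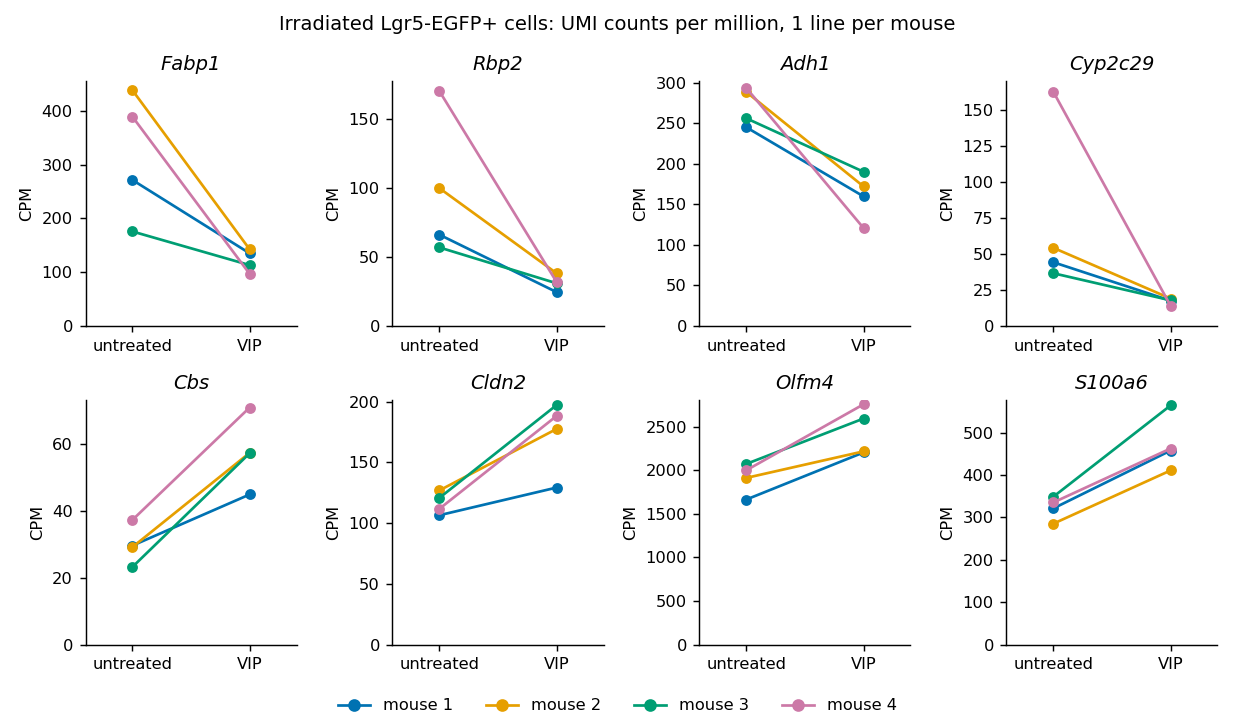
Level in CPM (vertical axis, from 0) of 4 genes that were lower and 4 genes that were higher with VIP in irradiated Lgr5-EGFP+ cells. Each line joins the untreated and the VIP library of 1 mouse; all 4 lines fall for Fabp1, Rbp2, Adh1 and Cyp2c29 and rise for Cbs, Cldn2, Olfm4 and S100a6, and untreated mouse 4 is the highest library for Cyp2c29 at 163 CPM.

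The promoters of several of these lower genes are shown because they share a short motif. The 250 bases before the RefSeq transcription start (GRCm38.p6) were searched on both strands for AGGTCA, the half-site bound by many nuclear receptors, for the cyclic AMP response element TGACGTCA, for its half-site TGACG and for the TATA box TATAAA. The motifs were chosen with the called genes known. Of the 22 called genes, 19 had an entry. AGGTCA was found in 5 of the 8 lower genes with an entry and in 0 of the 11 higher ones, against 14% of all 32851 promoter entries. Adh1 was not among these 5 genes. A called gene counted if any of its entries held the motif, whereas the shares of all promoters are over single entries. The full TGACGTCA occurred in 1 of the 11 higher genes, 2210407C18Rik, and in 1.55% of all promoters. The half-site TGACG, which is contained in it, occurred in 2 higher genes and 1 lower gene (17.8% of all promoters), and TATAAA in 3 higher and 4 lower genes (12.4% of all promoters). In the sequences below, written along the gene's strand, capitals mark AGGTCA or its reverse complement TGACCT and, in 2210407C18Rik, TGACGTCA.
Fabp1, chr6:71199629-71199878, plus strand: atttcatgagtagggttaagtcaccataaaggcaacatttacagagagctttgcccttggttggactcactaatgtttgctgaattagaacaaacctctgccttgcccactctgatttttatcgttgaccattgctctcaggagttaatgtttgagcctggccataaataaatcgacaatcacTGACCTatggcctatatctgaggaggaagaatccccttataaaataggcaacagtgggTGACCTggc
Rbp2, chr9:98490287-98490536, plus strand: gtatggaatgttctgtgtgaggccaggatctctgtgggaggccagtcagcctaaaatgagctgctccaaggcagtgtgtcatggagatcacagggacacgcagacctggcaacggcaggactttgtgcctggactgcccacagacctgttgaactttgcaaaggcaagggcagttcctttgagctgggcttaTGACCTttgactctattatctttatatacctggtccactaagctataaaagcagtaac
Cyp2c29, chr19:39286835-39287084, plus strand: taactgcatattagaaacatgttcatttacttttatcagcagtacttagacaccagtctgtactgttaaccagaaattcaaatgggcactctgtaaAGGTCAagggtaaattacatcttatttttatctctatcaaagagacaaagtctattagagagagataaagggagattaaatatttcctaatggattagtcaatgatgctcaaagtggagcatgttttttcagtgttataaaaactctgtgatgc
Cyp3a11, chr5:145879855-145880104, minus strand: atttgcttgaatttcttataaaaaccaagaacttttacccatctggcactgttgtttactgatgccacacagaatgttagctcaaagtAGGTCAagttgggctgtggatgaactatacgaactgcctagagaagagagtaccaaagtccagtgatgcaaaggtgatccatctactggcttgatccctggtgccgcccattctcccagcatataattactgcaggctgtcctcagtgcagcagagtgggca
Ces2a, chr8:104733753-104734002, plus strand: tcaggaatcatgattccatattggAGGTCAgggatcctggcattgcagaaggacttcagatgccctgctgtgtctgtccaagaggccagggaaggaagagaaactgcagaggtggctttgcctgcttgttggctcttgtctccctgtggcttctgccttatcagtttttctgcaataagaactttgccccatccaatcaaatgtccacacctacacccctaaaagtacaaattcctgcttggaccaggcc
2210407C18Rik, chr11:58613493-58613742, minus strand: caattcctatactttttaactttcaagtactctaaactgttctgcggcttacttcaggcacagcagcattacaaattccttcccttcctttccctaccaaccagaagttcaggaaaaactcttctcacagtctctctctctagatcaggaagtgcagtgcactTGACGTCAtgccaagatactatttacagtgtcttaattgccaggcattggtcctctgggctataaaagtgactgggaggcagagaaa
Fabp1 held 2 copies of the motif, which began 67 and 9 bases before the start. A match of letters says nothing on whether a factor was bound.

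Across the list of enterocyte genes, 21 of 23 members tested were lower with VIP, and 5 of them (Fabp1, Rbp2, Adh1, Cyp2c29 and Cyp3a11) passed the threshold. At an unadjusted p under 0.05 a further 10 were lower, giving 15 of 23, where 2.92% of all genes were lower at that level and 2.84% were higher. The list was written with earlier results of these data known, so these counts describe its members and are not a test. The median log2 fold change was -0.64, against 0.00 over all genes. By mouse the median difference was -0.31, -0.26, -0.43 and -1.50, so the direction was shared by the 4 mice and the size was largest in mouse 4. Without mouse 4 the median was -0.28. Summed over the list, the untreated libraries held 3233, 3357, 3001 and 5400 CPM and the VIP libraries 2634, 2496, 2748 and 2562 CPM. The same direction was seen in the non-irradiated cells of these mice. There 21 of the 23 members were lower with VIP, 4 were called, and the median was -0.41.

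Fcgbp and Rnase1, which encode secreted proteins, also fell in 4 of 4 mice. Fcgbp, a mucus protein of goblet cells, was at 114, 137, 67.6 and 158 CPM without VIP and at 63.0, 82.0, 49.5 and 38.4 CPM with it (log2 fold change -1.05 ± 0.22, edgeR adjusted p = 0.030), and it was the only called gene whose groups overlapped. Rnase1, a secreted ribonuclease, fell from 259, 220, 291 and 332 CPM to 216, 198, 140 and 132 CPM (-0.69 ± 0.14, edgeR adjusted p = 0.030). Muc2, the main intestinal mucin, measured 61.5, 48.4, 45.4 and 75.4 CPM without VIP and 42.7, 44.6, 28.6 and 29.2 CPM with it, and did not pass (edgeR adjusted p = 0.16). Over the goblet list, 10 of 20 genes tested were higher and 10 were lower, 1 was called, and the median was -0.04. The mucus and secreted products Fcgbp, Zg16, Muc2, Spink4, Guca2a, Tff3 and Clca1 made up the 7 that were lower at an unadjusted p under 0.05, whereas the goblet transcription factor Creb3l1 was higher at that level.

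All 16 Paneth cell genes tested had a negative fold change, 10 of them at an unadjusted p under 0.05, yet none passed the adjusted threshold. Their median was -0.51, with differences of -0.51, 0.27, -0.97 and -0.80 in mice 1 to 4. Mouse 2 went the other way, and its untreated library was the lowest of the untreated ones for the summed list. The alpha-defensin gene Defa17 illustrates this, with 4006, 2596, 5613 and 5864 CPM without VIP and 2166, 2885, 2842 and 2579 CPM with it (log2 fold change -0.77 ± 0.18, edgeR adjusted p = 0.072). The sum over the list was 22221, 15810, 30242 and 30645 CPM in untreated cells and 15849, 18330, 16883 and 16869 CPM with VIP. Library depth differed within the mice as well, with 1700208, 1804839, 1075715 and 1122223 UMIs without VIP and 1876729, 1251369, 1699515 and 1855853 UMIs with it, so mouse 2 was also the only mouse whose VIP library was the shallower one. The mitochondrial share was 5%, 5.5%, 6.15% and 6.37% without VIP and 5.17%, 6.78%, 5.23% and 5.55% with it. The part of depth and of the mitochondrial share in the Paneth values was not tested. Defa-ps6, annotated as a defensin pseudogene, was called lower (-2.62 ± 0.43, edgeR adjusted p = 0.0032) on 10 to 32 UMIs without VIP and 2 to 7 UMIs with it. Reads of near-identical defensin copies may be split between genes, so single defensin values are uncertain. All 16 Paneth cell genes were also lower with VIP in the non-irradiated cells of these mice, with a median of -0.41 and 0 calls.

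**Figure D2:**
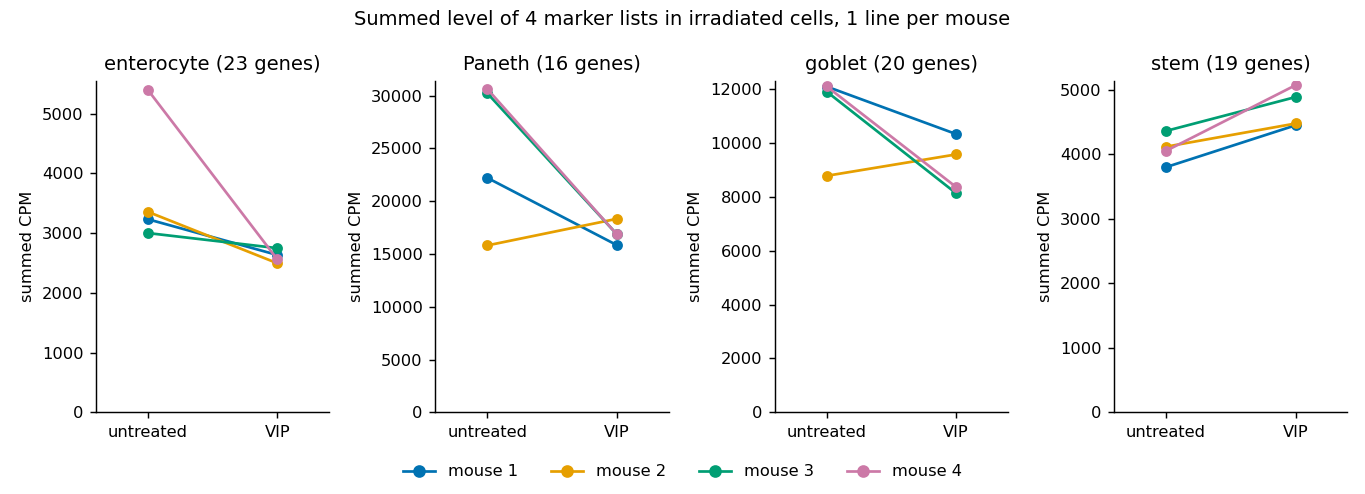
Summed CPM (vertical axis, from 0) of the enterocyte, Paneth, goblet and stem cell lists in irradiated cells, with 1 line per mouse from the untreated to the VIP library. Enterocyte sums fall in all 4 mice, most steeply in mouse 4 from 5400 to 2562 CPM. Stem cell sums rise in all 4, mostly through Olfm4. Mouse 2 rises for the Paneth and goblet lists while the other 3 fall.

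Among stem cell genes Olfm4 rose with VIP. Olfm4, a secreted glycoprotein of crypt base columnar cells and a Notch target, was at 1663, 1911, 2071 and 1999 CPM in untreated mice 1 to 4 and at 2203, 2216, 2592 and 2755 CPM with VIP. The VIP libraries all exceeded the untreated ones, by a log2 fold change of 0.35 ± 0.07 (edgeR adjusted p = 0.018). Olfm4 did not pass when mouse 4 was left out (adjusted p = 0.26). Lgr5 itself measured 20.1, 25.8, 21.3 and 17.7 CPM without VIP and 26.2, 30.3, 17.3 and 21.6 CPM with it, a difference of 0.18 ± 0.21 on the log2 scale that was within the spread between mice (edgeR adjusted p = 0.97). Smoc2, another gene of Lgr5 cells, stood higher in every VIP library than in any untreated one but did not pass (0.29 ± 0.08, edgeR adjusted p = 0.16). Of 19 stem cell genes tested, 14 were higher and 5 lower, only Olfm4 was called, and the median was 0.09. Their summed level lay between 3800 and 4361 CPM without VIP and between 4449 and 5071 CPM with it. Olfm4 contributed the most to this sum and to its rise, with a mean of 1911.1 CPM without VIP and 2441.5 CPM with it. In the non-irradiated cells of these mice, 15 of the 19 stem cell genes were higher with VIP. Their median was 0.15, and Olfm4 was the only call.

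Cldn2, Aqp1, Ceacam1 and Pglyrp1 rose as well. Cldn2, which forms paracellular cation and water channels in tight junctions, went from 107, 127, 121 and 112 CPM to 129, 178, 197 and 188 CPM with VIP (log2 fold change 0.55 ± 0.09, edgeR adjusted p = 0.0032). Aqp1, a water channel, went from 98.2, 83.5, 79.2 and 99.7 CPM to 130, 115, 137 and 129 CPM (0.50 ± 0.10, edgeR adjusted p = 0.019). In both genes the lowest VIP library was above the highest untreated library. The adhesion molecule Ceacam1 rose by 0.44 ± 0.10 (edgeR adjusted p = 0.043), and Pglyrp1, a peptidoglycan recognition protein with antibacterial activity, by 0.37 ± 0.06 (edgeR adjusted p = 0.0053). Ceacam1 did not pass when any single mouse was left out. Aqp1 did not pass without mouse 2, 3 or 4, Cldn2 without mouse 3 or 4, and Pglyrp1 without mouse 3. Over 40 apical junction and actin genes, 18 were higher and Cldn2 alone was called, with a median of -0.01.

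Metabolic and other genes made up the rest of the higher set. Cbs (chromosome 17, 31608894 to 31637238), which makes cystathionine in the transsulfuration pathway, had the largest change of any higher gene with more than a few counts. It stood at 29.6, 29.1, 23.2 and 37.3 CPM without VIP and at 44.9, 57.3, 57.2 and 70.9 CPM with it (log2 fold change 0.94 ± 0.15, edgeR adjusted p = 0.0032). Rdh10, which converts retinol to retinal for retinoic acid synthesis, was at 27.8, 46.2, 46.4 and 47.5 CPM and at 59.8, 57.3, 70.3 and 75.8 CPM, respectively (0.68 ± 0.13, edgeR adjusted p = 0.021). Among genes that handle retinoids, Rdh10 thus rose while Rbp2 and Adh1 fell. S100a6, a calcium-binding protein of the fetal-like regenerative list, rose from 321, 285, 349 and 335 CPM to 458, 411, 564 and 463 CPM (0.56 ± 0.09, edgeR adjusted p = 0.0032). Sat1, which acetylates spermidine and spermine, rose by 0.42 ± 0.09 (edgeR adjusted p = 0.032), and Colgalt1, a collagen galactosyltransferase, by 0.48 ± 0.10 (edgeR adjusted p = 0.032).

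The uncharacterized gene 2210407C18Rik, whose promoter holds the cyclic AMP response element shown above, was at 57.4, 50.6, 55.1 and 59.6 CPM without VIP and at 68.9, 108, 101 and 103 CPM with it (0.75 ± 0.13, edgeR adjusted p = 0.0063). The histone gene H4c4 rose by 0.73 ± 0.12 (edgeR adjusted p = 0.0053), although reads of histone H4 genes, which are alike in sequence, may be shared between them. Gm10059, a processed pseudogene, rose by 1.89 ± 0.40 (edgeR adjusted p = 0.043) on 2 to 3 UMIs without VIP and 9 to 14 UMIs with it.

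Fetal-like regenerative genes, which mark the epithelium during repair, were higher for 16 of 21 members with a median of 0.08, and S100a6 alone was called. The galectin Lgals3 of that list was higher in 4 of 4 mice without passing (0.65 ± 0.17, edgeR adjusted p = 0.16). All 7 Notch genes tested were higher (median 0.20), with Olfm4 the only call, and the transcription factors of secretory lineages were higher for 12 of 16 members with a median of 0.11 and 0 calls. Wnt feedback genes were higher for 12 of 15 members with a median of 0.09 and 0 calls. Over all genes tested, 49.4% were higher and 0.221% were called.

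**Figure D3:**
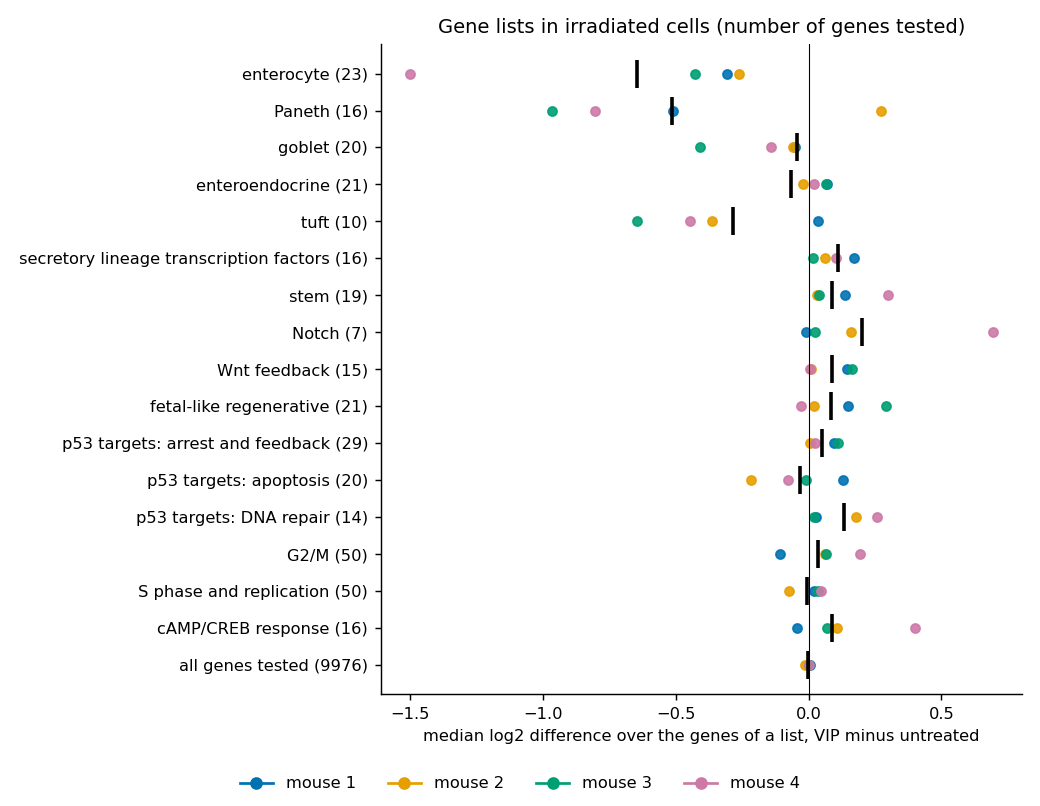
Median log2 difference between the VIP and the untreated library over the genes of each list (horizontal axis) in irradiated cells; coloured points are the 4 mice and the black bar is the median fitted fold change, with the number of genes tested in parentheses. Enterocyte points all lie below 0, with mouse 4 at -1.50, Paneth points fall on both sides of 0, and the 3 p53 lists stay within 0.26 of 0.

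The p53 response to radiation was examined because it governs arrest, repair and death of damaged cells. Cdkn1a measured 588, 697, 638 and 647 CPM in untreated irradiated cells and 615, 652, 659 and 699 CPM with VIP, a log2 fold change of 0.03 ± 0.09 (edgeR adjusted p = 0.99). Mdm2 was at 42.0, 84.6, 40.6 and 65.2 CPM without VIP and at 47.0, 73.3, 57.8 and 62.8 CPM with it (0.05 ± 0.14, edgeR adjusted p = 0.99). The mRNA of p53 itself, Trp53, differed by 0.15 ± 0.10 (edgeR adjusted p = 0.96). These differences did not exceed the spread between mice. Radiation itself, compared in the untreated cells, had raised Cdkn1a by 1.15 ± 0.10 and Mdm2 by 1.28 ± 0.16 on the log2 scale.

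Over whole lists of p53 targets no gene was called in irradiated cells, where 0.221% of all genes tested were called. In lists of this size 0 calls is near that share. Of all genes tested, 49.4% were higher. Arrest and feedback genes were higher for 21 of 29 members with a median of 0.05. Apoptosis genes, among them Bax, Bbc3 and Fas, were higher for 7 of 20 with a median of -0.03, and DNA repair genes were higher for 11 of 14 with a median of 0.13. Polk, a translesion DNA polymerase, had the smallest p-value of the repair list (0.67 ± 0.26, edgeR adjusted p = 0.69). For comparison, the medians of the same 3 lists for radiation alone were 0.82, 0.62 and 0.00. The untreated irradiated libraries enter both comparisons.

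Without irradiation, the p53 targets Cdkn1a and Bbc3 fell with VIP in the same mice. Cdkn1a stood at 354, 281, 275 and 254 CPM without VIP and at 210, 179, 236 and 160 CPM with it (log2 fold change -0.57 ± 0.10, edgeR adjusted p = 0.0050). Arrest and feedback genes were higher for 5 of 29 members with a median of -0.14, and Cdkn1a was the only call. Of the apoptosis list, Bbc3, which encodes the pro-apoptotic protein PUMA, was called with -0.61 (edgeR adjusted p = 0.032). The VIP effect on Cdkn1a differed between irradiated and non-irradiated cells by 0.60 ± 0.14 on the log2 scale, which did not pass across all genes (edgeR adjusted p = 0.54). The difference for Bbc3 did not pass either (edgeR adjusted p = 0.68). Over the arrest and feedback list this difference was above 0 for 24 of 29 members (median 0.27), beside 50.9% of all genes. It was above 0 for 13 of 20 apoptosis genes (median 0.09) and 7 of 14 repair genes (median 0.02). No member passed, and the lists as a whole were not tested.

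**Figure D4:**
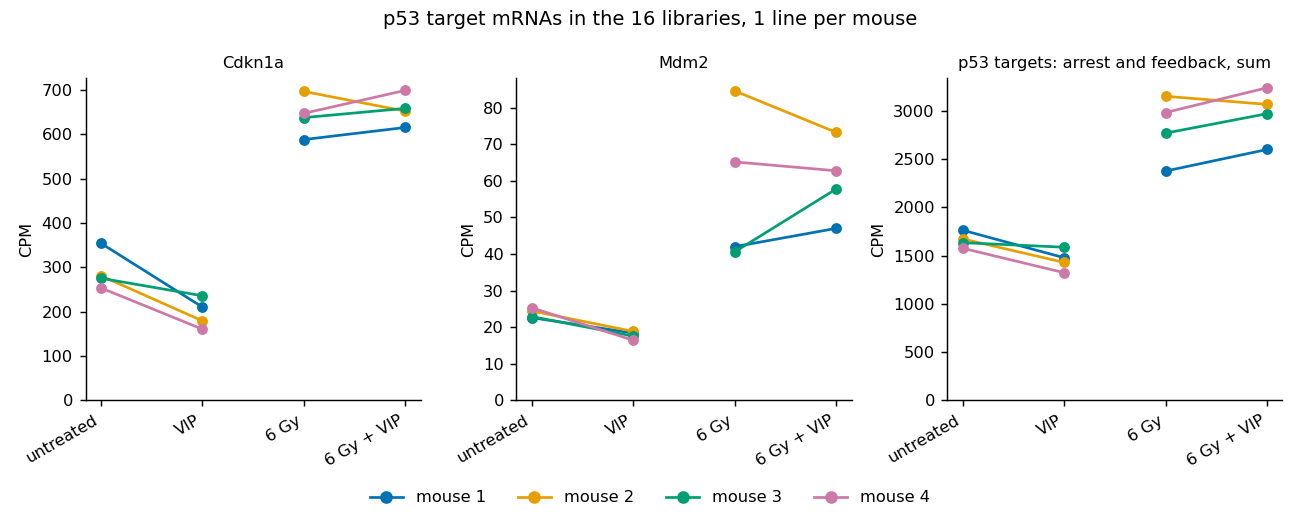
CPM (vertical axis, from 0) of Cdkn1a, of Mdm2 and of the summed p53 arrest and feedback list in the 16 libraries, with 1 line per mouse joining untreated and VIP libraries. All lines fall for Cdkn1a without radiation, whereas after 6 Gy the untreated (588 to 697 CPM) and VIP (615 to 699 CPM) libraries overlap.

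Cell cycle and cyclic AMP genes showed no call, which is near the share of 0.221% called among all genes tested. Of all genes, 49.4% were higher. G2/M genes were higher for 33 of 50 members with a median of 0.04, with Tpx2, a spindle assembly factor, at 0.32 ± 0.11 (edgeR adjusted p = 0.47). S phase and replication genes were higher for 24 of 50 with a median of -0.01. Ccnd1, which encodes cyclin D1, was higher in 4 of 4 mice but did not pass (0.33 ± 0.10, edgeR adjusted p = 0.41). Genes of the cyclic AMP and CREB response were higher for 12 of 16 members (median 0.09), and Nr4a1, an early target, measured 40.8, 41.8, 29.95 and 22.4 CPM without VIP and 32.1, 44.6, 59.0 and 59.5 CPM with it (edgeR adjusted p = 0.77). Vipr1 was detected in all irradiated libraries with 9 to 19 UMIs and did not differ beyond its spread (-0.06 ± 0.27, edgeR adjusted p = 0.99). Vipr2 was below the filter on low counts, with 1 UMI in a single irradiated library.

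Enteroendocrine hormones had differences in both directions, none of which passed. Cck, encoding cholecystokinin, was at 685, 534, 992 and 508 CPM without VIP and at 1137, 733, 1637 and 1036 CPM with it, higher in 4 of 4 mice (0.74 ± 0.17, edgeR adjusted p = 0.070). Gcg, the precursor of GLP-1, was also higher in 4 of 4 mice (0.76 ± 0.21, edgeR adjusted p = 0.21). Nts, encoding neurotensin, was at 84.0, 46.2, 377 and 180 CPM without VIP and at 57.2, 60.5, 29.2 and 49.2 CPM with it, so 3 mice were lower and mouse 2 was higher (-1.60 ± 0.35, edgeR adjusted p = 0.051). Over 21 genes of the list 9 were higher and the median was -0.06. All 10 tuft cell genes tested had a negative fold change with a median of -0.28 and 0 calls, on low counts.

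The called genes were then set beside the non-irradiated cells of the same mice, where 74 genes (0.742% of those tested) passed. Of the 22 genes, 21 had the same direction there and 9 also passed: Cbs, Cldn2, Aqp1, Ceacam1, Pglyrp1, Olfm4, Fabp1, Ces2a and Adh1. The share of all genes with the same direction in both sets of cells was not counted, so the 21 of 22 stands without that reference. Cldn2 measured 84.7, 101, 102 and 88.5 CPM without and 132, 168, 158 and 177 CPM with VIP in non-irradiated cells, a log2 fold change of 0.75 ± 0.09 (edgeR adjusted p = 5.56e-05) beside 0.55 ± 0.09 after irradiation. Rdh10 was the exception in direction, with -0.05 ± 0.15 in non-irradiated cells. Cyp2c29 and Cyp3a11 gave -0.39 ± 0.42 and -0.25 ± 0.36 there, where mouse 2 was higher with VIP for both.

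A test of the difference between the VIP effects in irradiated and non-irradiated cells called 0 genes (0%) in edgeR and 0 in DESeq2, with 634 genes at an unadjusted p under 0.05 in edgeR and 266 in DESeq2. Among the 22 called genes the lowest adjusted p of the difference was 0.633, for Rdh10. The smallest p-values over all genes belonged to Pfkl, Plgrkt, Cdkn1a, Gm4739 and Gm10801, none of which passed. Pfkl, the liver-type phosphofructokinase of glycolysis, rose by 0.87 ± 0.13 without irradiation and differed by -0.12 ± 0.15 with it (edgeR adjusted p of the difference = 0.51). Plgrkt, a plasminogen receptor, fell by 0.84 on the log2 scale without irradiation (edgeR adjusted p = 3.59e-05), with -0.25 ± 0.10 in irradiated cells.

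**Figure D5:**
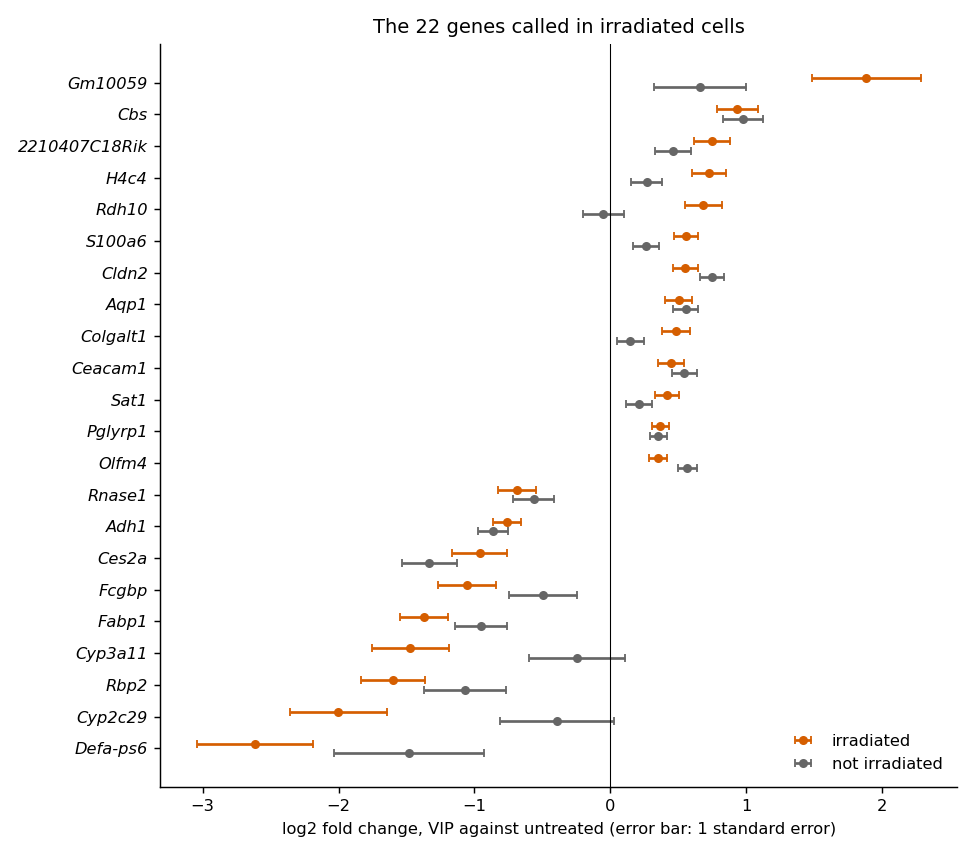
Log2 fold change of VIP against untreated cells (horizontal axis, with 1 standard error) for the 22 genes called in irradiated Lgr5-EGFP+ cells, in irradiated and in non-irradiated cells of the same 4 mice. The 2 estimates share their sign in 21 of 22 genes, and Rdh10 lies at 0.68 with and -0.05 without irradiation.

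Non-irradiated Lgr5-EGFP+ cells of other mice, treated with VIP for 72 h, allowed a comparison with no shared samples. Of the 22 genes 19 were tested there and 15 had the same direction, against 54.4% of the 6731 genes tested in both experiments. S100a6 (log2 fold change 1.68 ± 0.16, edgeR adjusted p = 1.4e-07) and Fcgbp (-0.97 ± 0.17, edgeR adjusted p = 0.0051) also passed in those cells, where 0.0885% of genes did. Cbs was higher in 4 of 4 of those mice without passing (1.09 ± 0.28, edgeR adjusted p = 0.17). The enterocyte genes Fabp1, Rbp2 and Adh1 had positive values there, with 0.44 ± 0.27, 0.56 ± 0.30 and 0.40 ± 0.21, none of which passed. In the non-irradiated cells of the 48 h experiment Fabp1, Rbp2 and Adh1 were lower with VIP, at -0.95 ± 0.19, -1.07 ± 0.30 and -0.86 ± 0.11. Rbp2 did not pass there (edgeR adjusted p = 0.093). The opposite signs were thus also seen between sets of cells that were both not irradiated. Treatment time and mice differed together between those sets and cannot be told apart. From the irradiated cells, the 72 h cells differed in radiation as well.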

How the data were processed

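The data were UMI counts per gene from 3′ RNA-seq libraries of sorted live Lgr5-EGFP+ cells. According to the study's methods and the labels, the authors aligned the reads to GRCm38 with GENCODE M25 through the Drop-seq pipeline and deposited raw counts, which collapse copies of 1 molecule by its UMI. Counting from the 3′ end leaves gene length out of the values. The tests compared each gene with itself between libraries. The whole 27547-gene table of the 48 h experiment (16 libraries, of which the 8 irradiated ones held 1075715 to 1876729 UMIs) was filtered to 9976 genes with filterByExpr, scaled by TMM and fitted with edgeR 4.0.16 (R 4.3.3; quasi-likelihood, group and mouse as terms). Benjamini-Hochberg adjustment ran over all genes tested, with a threshold of 0.05. The standard errors printed and drawn are the size of the log2 fold change divided by the square root of the test's F statistic. The 72 h experiment (6778 genes tested) was fitted separately.

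The treated and untreated organoids of a mouse share its line in the labels. Deviations from the group means correlated at 0.055 to 0.14 within a mouse and at -0.096 to 0.035 between mice, so the mouse was kept as a block. Constant differences between the 4 mice were thereby taken out of the tests. The p-values of the 48 h experiment rest on the spread that remained within mice, estimated over all 16 libraries.

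The members and gene lists were chosen with earlier results of these data known. The text names called genes that moved the same way in 4 mice (15 each way at most), the 4 smallest p-values of each of 28 lists, a fixed set of lineage and p53 genes, and the 5 smallest p-values of the difference; other list members named were chosen after their values were seen. Positions come from GENCODE M21 and promoters from RefSeq, both on GRCm38. Alternatives were other scalings (RLE, library size), no filter or at least 10 counts in every library, DESeq2 1.42.0 (Wald), no block, fewer libraries, mitochondrial genes left out and each mouse left out. The procedure was tested on simulated data that held no differences between mice. That check therefore does not bear on the block or on the dependence on single mice. Whole-organoid tables were not used here.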

Additional observations from a re-analysis of the deposited data

Results flagged for a closer look

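In 200 groups of 4 libraries (50 genes and marker sums in 4 groups), 17 held a library far from the other 3, where chance alone marks about 1 in 20. In untreated irradiated cells, mouse 4 stood high for Cyp2c29 (163 CPM against 36.7 to 54.4), Ces2a (237.5 CPM against 78.3 to 104) and the enterocyte sum (5400 CPM against 3001 to 3357). Rdh10 was low in mouse 1 of that group at 27.8 CPM, and the goblet sum was low in mouse 2 at 8781 CPM. Among irradiated VIP libraries, mouse 1 was low for 2210407C18Rik (68.9 CPM) and Sat1 (180.0 CPM), mouse 3 was high for Gm10059 (8.34 CPM) and Capg (36.9 CPM), and mouse 2 was high for Itln1, a Paneth and goblet lectin (2668 CPM). In untreated non-irradiated cells, mouse 1 was high for S100a6 (253 CPM) and Fcgbp (107 CPM), and mouse 3 was low for Cyp3a11 (10.9 CPM). In non-irradiated VIP cells, mouse 2 was high for Cyp3a11 (26.3 CPM) and Trp53 (214 CPM), mouse 4 was low for Ccnd1 (138 CPM), and mouse 3 was high for Cck (962 CPM). The part of these libraries in the results was not tested beyond leaving each mouse out.

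Polk was higher with VIP in 4 of 4 irradiated mice and lower in 4 of 4 non-irradiated ones, with a difference of 1.30 ± 0.43 on the log2 scale that did not pass across all genes (edgeR adjusted p = 0.69).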

How the results depend on the processing

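The 22 calls in irradiated cells numbered 110 with every gene that had at least 1 count, 12 with DESeq2, 12 without the replicate block and 52 when only these 8 libraries were fitted. Leaving out 1 mouse gave 5 to 35. The 74 calls without irradiation numbered 182 with no filter, 34 without the replicate block and 184 from those libraries alone, and 32 to 42 with 1 mouse left out. The difference of the VIP effects gave 34 calls with no filter and 0 to 1 with 1 mouse left out: Sst, encoding somatostatin, without mouse 1 (1.80, adjusted p = 0.0079) and Cck without mouse 3 (1.37, adjusted p = 0.0026). Mdm2 turned to -0.055 without mouse 3 and ranged up to 0.19 with another mouse left out. Calls of 18 of the 22 genes were lost without mouse 3 and of 14 without mouse 4; the cause was not tested. Other scalings moved the median of all genes to at most 0.02. The medians of the 3 p53 lists stayed within the spread between mice under all alternatives run.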

Other observations

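Several lists not described above had medians close to 0 in irradiated cells, where 0.221% of all genes tested were called. Interferon response genes were higher for 9 of 15 members (median 0.04), unfolded protein response genes for 7 of 26 (median -0.05), cholesterol synthesis genes for 12 of 24 (median 0.00), EGF ligands, receptors and feedback genes for 7 of 15 (median -0.01), immediate early and stress genes for 13 of 22 (median 0.02), and genes that carry the cyclic AMP signal for 14 of 20 (median 0.05), each with 0 calls. NRF2 and glutathione genes were higher for 14 of 27 members (median 0.02) with 0 calls in irradiated cells. TNF and NF-kB response genes were higher for 13 of 22 (median 0.09), with Sat1 as the only call. Mitochondrially encoded respiratory chain genes were higher for 5 of 8 (median 0.01). None of the 8 immune genes passed the filter on low counts, and of the mesenchymal genes Vim alone did (-0.36 on the log2 scale).

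Capg, an actin-capping protein, was higher in every VIP library than in any untreated irradiated one without passing (log2 fold change 1.10 ± 0.30; edgeR adjusted p = 0.18).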
